A study of Mus musculus with 52 samples.

Results

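The hormones of the gut epithelium and the acidic proteins that pack them into secretory granules were followed while mouse intestinal organoids grew from single cells, with and without drugs that act on retinoid signalling. The set holds 10 genes of the 24116 in the expression table, chosen by gene symbol. They are 2 chromogranins, Chga and Chgb, and 8 hormone genes, Ghrl, Gcg, Pyy, Nts, Cck, Sct, Gip and Sst.

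The treated organoids received 10 µM all-trans retinoic acid (atRA), which activates the retinoic acid receptors, or 5 µM of an antagonist of the retinoid X receptors (RXRi), which pair with many nuclear receptors. The controls received the vehicle DMSO. Treatment was given on day 0 and again on day 3, and RNA was taken on days 1, 3, 4 and 5 and, in DMSO alone, on day 0, which gives 13 groups. All came from wild type C57BL/6 males of 8 weeks, as 2 cultures from littermates with RNA purified in duplicate. Up to day 3 every group, controls included, also grew with 20% Wnt3a-conditioned medium, 10 µM Y-27632 (which blocks ROCK) and 3 µM CHIR99021 (which blocks GSK3B). These were withdrawn on day 3, so the change of medium and the second dose fall together. The labels give the organoids as intestinal, without a segment.

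Messenger RNA was sequenced, and levels are in RPKM, which corrects reads for gene length and library depth, so that levels of different genes can be set side by side. The 51 libraries used held 12895667 to 26206028 reads. A further DMSO library of day 1 held 12443 reads and was left out, so culture 1 of that group rests on 1 library. Group values are means ± SD over the 2 culture means (n = 2). Differences were tested with limma on log2(RPKM + 1), over the 12443 genes that passed a filter on low values, with Benjamini-Hochberg adjustment. A difference was called at an adjusted p under 0.05, and ± after a log2 difference is its standard error. All 10 genes passed the filter. In the epithelial identity list 12 of 12 genes averaged above 1 RPKM in every group, and 8 of 8 fibroblast genes stayed below it. In bulk RNA, fewer enteroendocrine cells and less hormone RNA per cell cannot be told apart, which touches every result here.

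Enteroendocrine cells are scattered secretory cells of the gut lining that sense its contents and release peptide hormones or serotonin. They arise from secretory progenitors through the transcription factor Neurog3, and a cell can change its hormones as it ages and moves from crypt to villus. Hormone precursors are sorted into dense-core granules with the chromogranins, cut by prohormone convertases and stored until calcium enters the cell.

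The promoters of the set were read to show which short sequences its members share. Windows of 250 bases before to 50 bases after a start site came from RefSeq on GRCm38.p6, the patch series of the mm10 build named for these data. All 10 genes matched, with 14 start sites. Searches for 5 motifs covered both strands, except TATAAA, which was sought on the strand of the gene. The 4 windows below are shown because between them they hold each motif searched, and capitals mark the matches. Chgb (chr2:132781392-132781691, plus strand) and Sst (chr16:23890795-23891094, minus strand) hold TGACGTCA, the full cAMP response element, and Chgb also holds CAGCTG. Gcg (chr2:62483604-62483903, minus strand) holds CAGATG at 2 places and TATAAA. Sct (chr7:141279084-141279383, minus strand) holds CAGATG and CAGCTG as well as TATAAA. It also holds the motif AGGTCA, which nuclear receptors recognise, as TGACCT on the strand shown. CAGATG and CAGCTG are E-boxes, the sites of bHLH factors such as Neurog3 and Neurod1.
Chgb: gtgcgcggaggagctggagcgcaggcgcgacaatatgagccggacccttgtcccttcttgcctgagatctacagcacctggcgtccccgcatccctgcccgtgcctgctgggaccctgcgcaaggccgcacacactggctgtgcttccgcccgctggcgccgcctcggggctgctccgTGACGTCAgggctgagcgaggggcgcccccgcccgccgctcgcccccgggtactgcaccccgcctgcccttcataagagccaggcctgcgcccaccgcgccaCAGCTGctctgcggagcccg
Sst: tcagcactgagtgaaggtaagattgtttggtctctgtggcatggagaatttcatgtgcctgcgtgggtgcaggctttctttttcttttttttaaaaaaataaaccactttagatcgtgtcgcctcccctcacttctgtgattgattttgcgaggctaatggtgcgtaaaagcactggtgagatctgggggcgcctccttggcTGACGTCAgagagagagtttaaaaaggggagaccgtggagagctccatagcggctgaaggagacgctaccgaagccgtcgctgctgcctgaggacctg
Gcg: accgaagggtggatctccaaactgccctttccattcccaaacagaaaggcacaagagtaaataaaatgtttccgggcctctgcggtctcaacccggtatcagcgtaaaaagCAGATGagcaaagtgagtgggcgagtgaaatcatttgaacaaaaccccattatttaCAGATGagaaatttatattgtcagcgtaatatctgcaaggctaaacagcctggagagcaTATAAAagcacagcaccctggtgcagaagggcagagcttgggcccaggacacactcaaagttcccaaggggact
Sct: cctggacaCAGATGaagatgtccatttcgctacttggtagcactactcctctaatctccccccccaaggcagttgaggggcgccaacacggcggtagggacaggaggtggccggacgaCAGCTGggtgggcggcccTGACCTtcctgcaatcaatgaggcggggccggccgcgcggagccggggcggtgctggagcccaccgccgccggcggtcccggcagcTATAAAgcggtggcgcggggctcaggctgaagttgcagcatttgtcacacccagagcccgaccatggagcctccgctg
TGACGTCA was found in 2 of the 10 genes and in 1.79% of 32851 mouse promoter windows of the same length. CAGCTG was found in 6 of the 10 genes, Ghrl, Chga, Chgb, Sct, Nts and Gip, and in 16.3% of all windows. CAGATG was found in 4, Ghrl, Gcg, Cck and Sct, and in 17.2% of all windows. AGGTCA was found in 2, Ghrl and Sct (16.3% of all windows), and TATAAA in 3, Chga, Gcg and Sct (8.32%). Ghrl has 4 start sites and Pyy 2, and a gene was counted where any window held the motif, which favours genes with several. These matches describe letters in a window and are no evidence of binding.

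Chgb was the most abundant of the 10 transcripts. Chgb, chromogranin B, a protein of the granule core (chr2:132781642-132795079), was the highest of the 10 genes in all 13 groups, at 42.1% to 59.4% of their summed RPKM. Chgb in DMSO averaged 960 ± 200 RPKM on day 0, 1093 ± 207 on day 1, 49.7 ± 4.26 on day 3, 73.7 ± 11.7 on day 4 and 152 ± 5.89 on day 5. Its order over groups put the 3 groups of day 1 and that of day 0 on top, each overlapping the next in its libraries. Chga, chromogranin A, which helps granules to form (chr12:102554941-102565027), averaged 233 ± 44.3 RPKM in DMSO on day 0, 194 ± 9.99 on day 1, 8.96 ± 1.05 on day 3, 10.1 ± 0.517 on day 4 and 17.0 ± 1.97 on day 5.

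The leading hormone changed from day to day. On day 0, Gip, the incretin of K cells (chr11:96024532-96030831), led with 472 ± 132 RPKM, ahead of Cck with 139 ± 25.9 and Gcg with 120 ± 37.9. On day 1 in DMSO, Cck, which contracts the gallbladder and signals satiety (chr9:121489824-121495694), led with 488 ± 57.9 RPKM, ahead of Gcg with 360 ± 23.8. Gcg, whose precursor gives the glucagon-like peptides of L cells (chr2:62474530-62483653), was lowest in RXRi on day 5, with 1.73 ± 0.315 RPKM. In its order over groups the 4 highest, DMSO, atRA and RXRi of day 1 and then day 0, did not overlap their neighbours. Ghrl, ghrelin, the appetite hormone of X cells (chr6:113716119-113719911), was highest in RXRi on day 1 with 144 ± 26.8 RPKM and lowest in DMSO on day 3 with 4.84 ± 0.585. Sst, somatostatin, which restrains the release of other hormones (chr16:23889573-23891342), had 84.9 ± 27.9 RPKM on day 0, apart from all other groups, and 0.467 ± 0.0908 in DMSO on day 4.

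The remaining hormones, Sct, Pyy and Nts, averaged at most 54.3 RPKM in any group. Sct, secretin, which stimulates bicarbonate release (chr7:141278329-141279174), was highest in DMSO on day 1, with 54.3 ± 2.51 RPKM, overlapping atRA of that day with 53.2 ± 9.07. Pyy, peptide YY, an L-cell hormone that slows transit (chr11:102106676-102107832), was highest in atRA on day 1, with 50.5 ± 11.4 RPKM, and had 0 to 3 reads per DMSO library on day 3 and 0 to 2 on day 5. Nts, neurotensin, often made with peptide YY (chr10:102481756-102490418), was highest in DMSO on day 1, with 9.80 ± 2.40 RPKM, and every group in its order overlapped the next. The region of Cck overlaps 1 predicted non-coding RNA, Gm38661. Without knowing whether strand was used in counting, reads of this pair cannot be told apart.

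**Figure D1:**
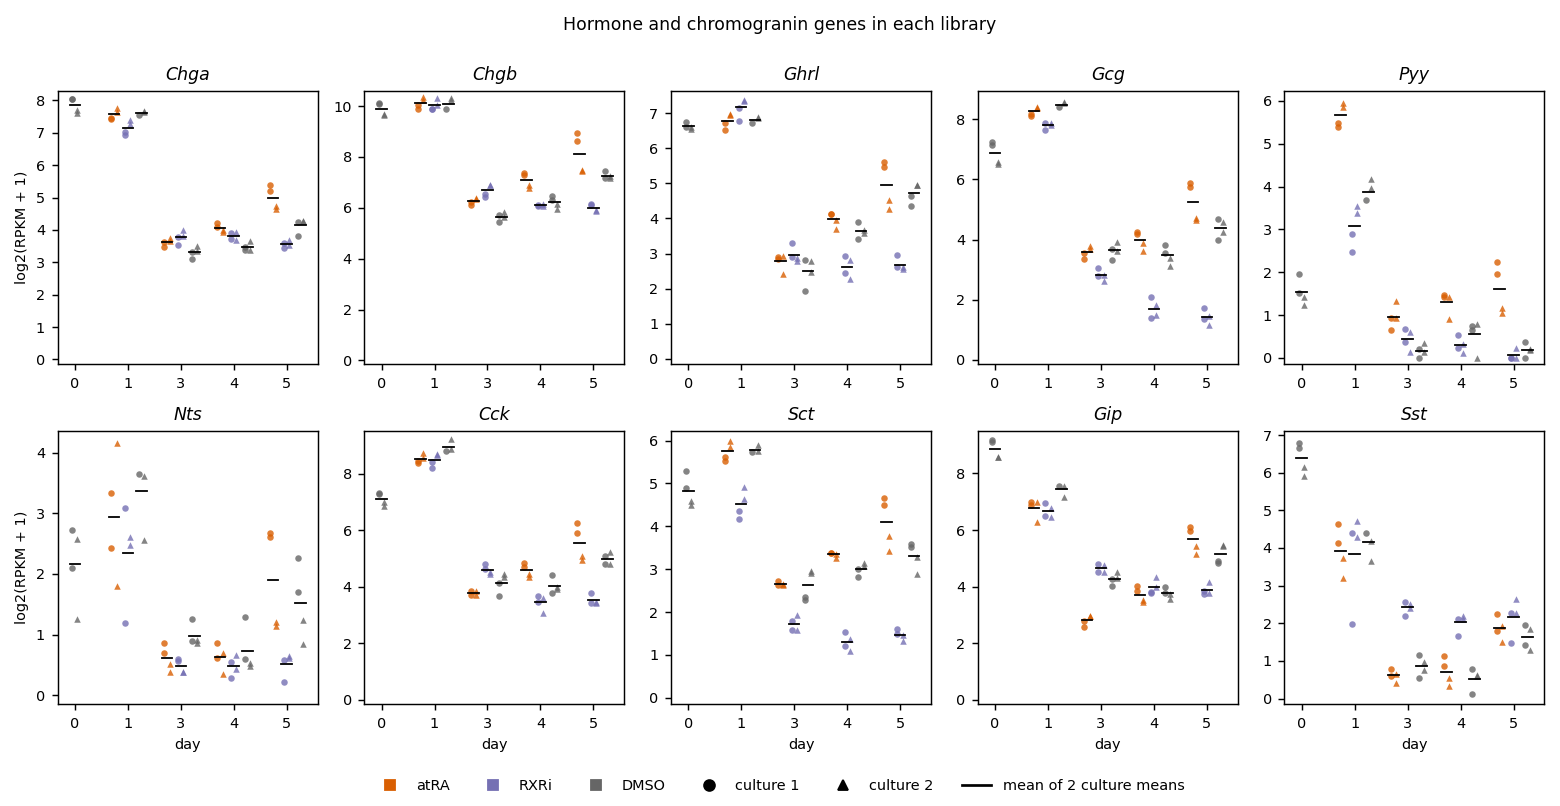
Levels of the 10 genes as log2(RPKM + 1) in each library, by day, with atRA, RXRi and DMSO from left to right within a day, symbols for the 2 cultures and bars for the mean of the culture means. The 10 genes sit lower on day 3 than on day 1 in DMSO. On day 5 every RXRi library of Gcg, Ghrl and Sct lies below those of atRA and DMSO, which overlap each other.

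In DMSO the mix of hormones on day 1 was not that of day 0. The summed RPKM of the 8 hormone genes was 1229 ± 76.0 on day 1 and 947 ± 238 on day 0. Gcg had 343, 370 and 383 RPKM in the libraries of day 1, against 151, 142, 95.3 and 90.5 RPKM in those of day 0. Gip had 185, 144 and 190 RPKM on day 1, against 551, 581, 378 and 379 RPKM on day 0. The libraries of the 2 days did not overlap in either gene, with Gcg higher and Gip lower on day 1. Lack of overlap is common in these data: it held for 12.1% to 76.1% of all genes tested, depending on the comparison.

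On day 1 against day 0, 5 of the 10 genes rose and 2 fell, where 25.6% of all genes were called higher and 35.6% lower, so calls were common on this day. Pyy rose by 2.34 ± 0.28 on the log2 scale (adjusted p = 2.34e-06), Cck by 1.81 ± 0.26 (1.43e-05), Gcg by 1.62 ± 0.28 (0.000109), Nts by 1.21 ± 0.37 (0.00945) and Sct by 0.97 ± 0.27 (0.00529). Sst fell by 2.23 ± 0.36 (adjusted p = 6.16e-05) and Gip fell by 1.40 ± 0.25 (0.000134). Chga, Chgb and Ghrl were not called, with log2 differences of -0.25 (95% interval -0.62 to 0.12), 0.19 (-0.45 to 0.83) and 0.17 (-0.37 to 0.72). The median of the 10 genes was 0.58, against -0.09 for all genes. Sct lost its call without culture 2 of DMSO on day 0 (0.0781), with the adjusted p in brackets, and Nts without culture 2 of DMSO on day 0 (0.0864) or culture 1 of DMSO on day 1 (0.0956). Nts gave 0.30 with the shallow library kept (adjusted p = 0.565). Markers of other cells moved over the same day. Of 10 stem cell markers 8 fell and 1 rose, with a summed level of 333 to 341 RPKM on day 1 and 1552 to 1655 RPKM on day 0, and of 12 enterocyte markers 8 fell and 1 rose, with 299 to 420 RPKM on day 1 and 1183 to 1396 RPKM on day 0. Their part in the change of the hormones was not tested.

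Between day 1 and day 3 in DMSO all 10 genes fell, where 6.49% of all genes were called lower and 6.19% higher. Their median log2 change was -4.0, against 0.00 for all genes. Chgb had 42.1, 51.3, 49.0 and 56.4 RPKM on day 3, against 947, 1275 and 1205 RPKM on day 1. Gcg had 9.08, 11.8, 11.4 and 14.1 RPKM on day 3, against 343, 370 and 383 RPKM on day 1. Both genes lay far below their day 1 range on day 3, with no overlap. Gcg fell by 4.85 ± 0.28 (adjusted p = 6.44e-09), Cck fell by 4.77 ± 0.26 (4.13e-09), Chgb fell by 4.43 ± 0.30 (4.7e-08), Chga fell by 4.30 ± 0.18 (1.21e-10) and Ghrl fell by 4.29 ± 0.26 (1.06e-08). Sst fell by 3.30 ± 0.36 (8.18e-06), Gip fell by 3.18 ± 0.25 (1.64e-07), Sct fell by 3.16 ± 0.27 (4.53e-07) and Nts fell by 2.39 ± 0.37 (0.000272). Pyy fell by 3.71 ± 0.28 (1.16e-07), with 0 to 3 reads per library on day 3 and 105 to 158 on day 1, so the size of its change depends on the pseudocount. The size of the change of Sst does too, with 6 to 19 reads per library on day 3.

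Markers of other cell types moved over the same interval. Of 10 Paneth cell markers 7 fell and 0 rose, with a summed level of 1230 to 1465 RPKM on day 3 and 3253 to 3813 RPKM on day 1. Of 10 goblet cell markers 2 fell and 0 rose, with 749 to 937 RPKM on day 3 and 1333 to 1460 RPKM on day 1. Their part in the fall of the hormones was not tested.

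After day 3 the hormones came back unevenly in DMSO. The sum of the 10 genes was 118 ± 15.9 RPKM on day 3, 143 ± 16.8 on day 4 and 295 ± 9.78 on day 5, the last being 13.8% of the 2140 ± 483 RPKM of day 0. From day 3 to day 4, 1 of the 10 genes rose and 0 fell, where 20.5% of all genes were called higher and 34.3% lower (27.8% and 25.6% with median-of-ratios scaling). The gene was Ghrl, with 9.63, 13.8, 10.9 and 11.8 RPKM on day 4, against 2.85, 6.00, 4.52 and 5.98 RPKM on day 3. Its libraries did not overlap, where those of 60% of all genes tested did not, and it rose by 1.13 ± 0.26 (adjusted p = 0.00137). Gcg and Cck gave -0.16 (95% interval -0.76 to 0.43) and -0.12 (-0.66 to 0.42), where the median of all genes was -0.10. With the scaling Chgb was called too, at 0.72 (adjusted p = 0.0403). The enterocyte markers summed to 4472 to 5624 RPKM on day 4 and 220 to 306 RPKM on day 3, and their part was not tested.

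From day 4 to day 5, 4 of the 10 genes rose and 0 fell, where 2.11% of all genes were called higher and 1.33% lower (2.85% and 0.564% with median-of-ratios scaling). Gip had 29.1, 27.5, 43.9 and 42.1 RPKM on day 5, against 12.9, 15.1, 12.3 and 11.0 RPKM on day 4. Ghrl had 19.6, 24.0, 30.0 and 29.7 RPKM on day 5, against 9.63, 13.8, 10.9 and 11.8 RPKM on day 4. In both genes every day 5 library was above every day 4 library. Gip rose by 1.39 ± 0.25 (adjusted p = 0.00467), Ghrl by 1.09 ± 0.26 (0.0280), Chga by 0.68 ± 0.18 (0.0432) and Cck by 0.96 ± 0.26 (0.0497). Chgb and Gcg gave 1.04 ± 0.30 (adjusted p = 0.0695) and 0.89 ± 0.28 (0.0896), and both were called with the scaling. By voom on recovered reads Ghrl (0.0790), Chga (0.0808) and Cck (0.113) lost their calls. With no filter Chga (0.0700) and Cck (0.0793) lost theirs. The median of the 10 was 0.92, against -0.08 for all genes.

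These late calls depended on single cultures. Gip lost its call without culture 2 of DMSO on day 4 (0.0630), with the adjusted p in brackets, and Ghrl without culture 1 of DMSO on day 4 (0.0786), culture 2 of DMSO on day 4 (0.153) or culture 2 of DMSO on day 5 (0.0747). Chga lost its call without culture 1 of DMSO on day 4 (0.110), culture 2 of DMSO on day 4 (0.153), culture 1 of DMSO on day 5 (0.0664) or culture 2 of DMSO on day 5 (0.0888). Cck lost its call without culture 1 of DMSO on day 4 (0.0853), culture 2 of DMSO on day 4 (0.252), culture 1 of DMSO on day 5 (0.149) or culture 2 of DMSO on day 5 (0.0674). Of 12 enterocyte markers 5 rose and 0 fell over this step, and of 10 Paneth cell markers 4 rose and 0 fell. Their summed levels were 12400 to 16780 and 4059 to 5879 RPKM on day 5, against 4472 to 5624 and 2168 to 2830 RPKM on day 4. Their part in the change was not tested.

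By day 5 most of the set was still below day 0. In DMSO 9 of the 10 genes were lower on day 5 and 0 higher, where 51.1% of all genes were called lower and 18.7% higher (28.6% and 32.9% with median-of-ratios scaling). Sst had 2.90, 1.69, 1.42 and 2.57 RPKM on day 5, against 109, 99.9, 59.6 and 70.7 RPKM on day 0. No day 5 library of Sst came near those of day 0, and it fell by 4.76 ± 0.36 (adjusted p = 1.67e-08). Chga fell by 3.70 ± 0.18 (5.83e-11) and Gip fell by 3.69 ± 0.25 (3.56e-09), while Ghrl fell by 1.90 ± 0.26 (7.64e-06). The median of the 10 was -2.32, against -0.31 for all genes. Nts was not called, at -0.64 (95% interval -1.42 to 0.14), and without culture 1 of DMSO on day 5 it was, at -1.12 (adjusted p = 0.0316).

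The mix of hormones can be read apart from their total, as the share of each in the summed RPKM of the 8 hormone genes of a culture. In DMSO, Gip made up 49.7% ± 1.46 on day 0, 14.4% ± 1.95 on day 1, 31.4% ± 1.34 on day 3, 21.7% ± 0.742 on day 4 and 28.0% ± 5.20 on day 5. Cck made up 14.8% ± 0.986 on day 0, 39.6% ± 2.26 on day 1, 28.6% ± 1.82 on day 3, 26.3% ± 0.200 on day 4 and 24.6% ± 2.00 on day 5. Ghrl made up 10.6% ± 2.11 on day 0, 8.98% ± 0.132 on day 1, 8.19% ± 0.477 on day 3, 19.6% ± 1.44 on day 4 and 20.4% ± 2.31 on day 5. So the leading place passed from Gip to Cck within a day, and Ghrl took a larger share on days 4 and 5 than before. Sst made up 1.72% ± 0.354 on day 5 and 8.87% ± 0.710 on day 0. Shares of RPKM correct reads for gene length, while shares of reads do not and rank some hormones otherwise. By reads, Gip still led on day 0 and Cck on day 1, but on day 3 Cck had 31.0% and Gip 25.6%, and on day 5 Cck had 27.6% and Gip 23.9%, so the lead between these 2 genes on days 3 and 5 depends on the unit.

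**Figure D2:**
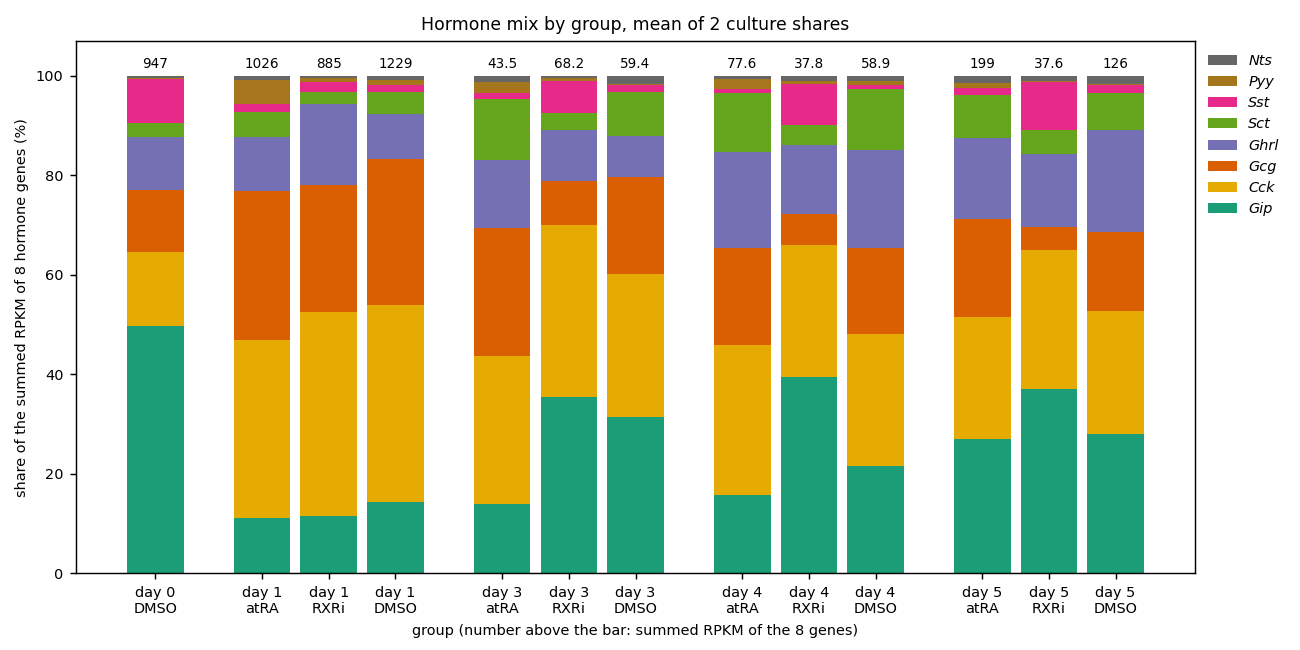
Share of each of 8 hormone genes in their summed RPKM (%), by group, as the mean of 2 culture shares, with the summed RPKM above each bar. RXRi on days 3, 4 and 5 holds a wider Sst band and a narrower Gcg band than atRA and DMSO of the same day.

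With retinoic acid, Pyy was higher on day 1. On day 1 Pyy had 43.8, 41.1, 56.7 and 60.5 RPKM in atRA, against 11.8, 17.1 and 14.6 RPKM in the DMSO libraries. Every atRA library was above every DMSO library. Pyy rose by 1.79 ± 0.28 (adjusted p = 0.00082). Of the 10 genes 1 was called higher and 0 lower, where 1.93% of all genes were called higher and 1.53% lower. With a pseudocount of 0.1 it gave 1.86 (adjusted p = 0.0519). Pyy made up 4.90% ± 0.646 of the hormones in atRA and 1.12% ± 0.160 in DMSO. Of 12 enterocyte markers 3 rose and 0 fell, with 2711 to 3973 RPKM in atRA and 299 to 420 RPKM in DMSO, and their part was not tested.

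On the later days Pyy rested on few reads, which are given summed over the libraries of a group. On day 3 it had 40.0 reads in atRA and 6.0 in DMSO, a ratio per depth of 7.37 (95% interval 3.10 to 21.3, counting error only). On day 4 it had 67.0 reads in atRA and 19.0 in DMSO, a ratio of 3.20 (1.90 to 5.64). On day 5 it had 88.0 reads in atRA and 4.0 in DMSO, a ratio of 15.5 (5.83 to 58.0). By pooled reads Pyy was higher in atRA on each of these days, with wide intervals. Those intervals leave out the spread between cultures and between duplicates. On the log2(RPKM + 1) scale it gave 0.79 ± 0.28 (adjusted p = 0.103) on day 3, 0.75 ± 0.28 (0.0906) on day 4 and 1.41 ± 0.28 (0.00581) on day 5, values that depend on the pseudocount. With a pseudocount of 0.1 Pyy was called on day 3 (2.31, adjusted p = 0.00529) and day 4 (1.76, 0.0311) too. The day 5 call was lost without culture 1 of DMSO on day 5 (0.0566).

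Gip went the other way on day 3. It had 5.03, 5.85, 6.76 and 6.82 RPKM in atRA, against 18.4, 15.2, 22.0 and 18.8 RPKM in DMSO. The groups did not overlap, and Gip fell by 1.46 ± 0.25 (adjusted p = 0.000774). Of the 10 genes 1 was called lower and 0 higher, where 4.36% of all genes were called lower and 4.32% higher. Its share of the hormones was 14.0% ± 1.54 in atRA and 31.4% ± 1.34 in DMSO. On day 4 Gip averaged 12.3 ± 2.83 RPKM in atRA and 12.8 ± 1.66 RPKM in DMSO, a log2 difference of -0.06 (95% interval -0.58 to 0.46). On day 3, 10 of 12 enterocyte markers and 9 of 10 goblet cell markers rose in atRA and 0 and 0 fell, with summed levels of 8189 to 8990 and 1657 to 2291 RPKM in atRA and 220 to 306 and 749 to 937 RPKM in DMSO. Their part in the change of Gip was not tested.

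On day 4 1 of the 10 genes was called higher in atRA and 0 lower, where 3.58% of all genes were called higher and 7.35% lower (5.36% and 2.98% with median-of-ratios scaling). Chga had 17.7, 15.9, 15.1 and 14.2 RPKM in atRA, against 10.1, 9.39, 9.49 and 11.5 RPKM in DMSO. Chgb had 164, 156, 118 and 108 RPKM in atRA, against 77.7, 86.2, 61.1 and 69.8 RPKM in DMSO. Both chromogranins were higher in every atRA library than in any DMSO library. Chga rose by 0.59 ± 0.18 (adjusted p = 0.0420), and Chgb gave 0.87 ± 0.30 (0.0748). Chgb was called with the scaling, at 1.04 (0.0286). Chga lost its call without culture 1 of atRA on day 4 (0.168), culture 2 of atRA on day 4 (0.111), culture 1 of DMSO on day 4 (0.170) or culture 2 of DMSO on day 4 (0.0932), as well as with no filter (0.0698) and by voom on recovered reads (0.0572). The median of the 10 was 0.43, against -0.12 for all genes. Of 12 enterocyte markers 8 rose and 0 fell, with 29790 to 32460 RPKM in atRA and 4472 to 5624 RPKM in DMSO, and of 10 goblet cell markers 6 rose and 0 fell, with 3250 to 4137 RPKM in atRA and 1913 to 2216 RPKM in DMSO. Their part was not tested.

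On day 5 the 10 genes had positive differences between atRA and DMSO in 10 of 10 cases, with a median of 0.67 against 0.00 for all genes. With 1 culture left out at a time, Ghrl went as low as -0.33 and Chgb as low as 0.21, so the sign did not hold in every run. Chga and Pyy were called, 2 higher and 0 lower, where 2.14% of all genes were called higher and 2.89% lower. Chga had 36.1, 40.5, 24.3 and 25.6 RPKM in atRA, against 13.2, 18.0, 18.4 and 18.3 RPKM in DMSO. Every atRA library of Chga was above every DMSO library, and it rose by 0.84 ± 0.18 (adjusted p = 0.00865). The Chga call was lost without culture 1 of atRA on day 5 (0.0639) or culture 1 of DMSO on day 5 (0.120). Chgb had 394, 485, 175 and 176 RPKM in atRA, against 141, 172, 145 and 151 RPKM in DMSO, and was not called at 0.86 ± 0.30 (0.129).

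The 2 atRA cultures of day 5 stood apart. The first pair of Chgb values is culture 1 and the second culture 2, and each of the 10 genes averaged higher in culture 1 than in culture 2. The summed RPKM of the 10 was 538 ± 292 in atRA and 295 ± 9.78 in DMSO. Without culture 2 of atRA, Gcg gave 1.44 and Chgb 1.52, against 0.87 and 0.86 with all cultures. Whether the effect of atRA differed between day 5 and day 1 was tested as a difference of differences. Limma called 0 of the 10 genes, 5 had an unadjusted p under 0.05, and voom on recovered reads called 0, where 0.49% of all genes were called higher and 0.659% lower. Gip gave 1.17 ± 0.35 (adjusted p = 0.158), Gcg 1.10 ± 0.40 (0.267) and Pyy -0.39 ± 0.40 (0.817). With 1 culture left out at a time, Chga ranged from 0.57 to 1.17, against 0.87 with all cultures. Without culture 2 of DMSO on day 5, Gip gave 1.46. Without culture 2 of atRA on day 5, Gcg gave 1.67 and Cck 1.5, against 1.10 and 0.97 with all cultures. The size of this difference thus depended on that culture. Of 12 enterocyte markers 2 rose and 1 fell in atRA on day 5, with 22870 to 39770 RPKM in atRA and 12400 to 16780 RPKM in DMSO. Of 10 goblet cell markers 4 rose and 0 fell, with 4177 to 6566 RPKM in atRA and 3106 to 3276 RPKM in DMSO, and of 10 Paneth cell markers 2 rose and 0 fell, with 6205 to 9306 RPKM in atRA and 4059 to 5879 RPKM in DMSO. Their part in the change was not tested.

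**Figure D3:**
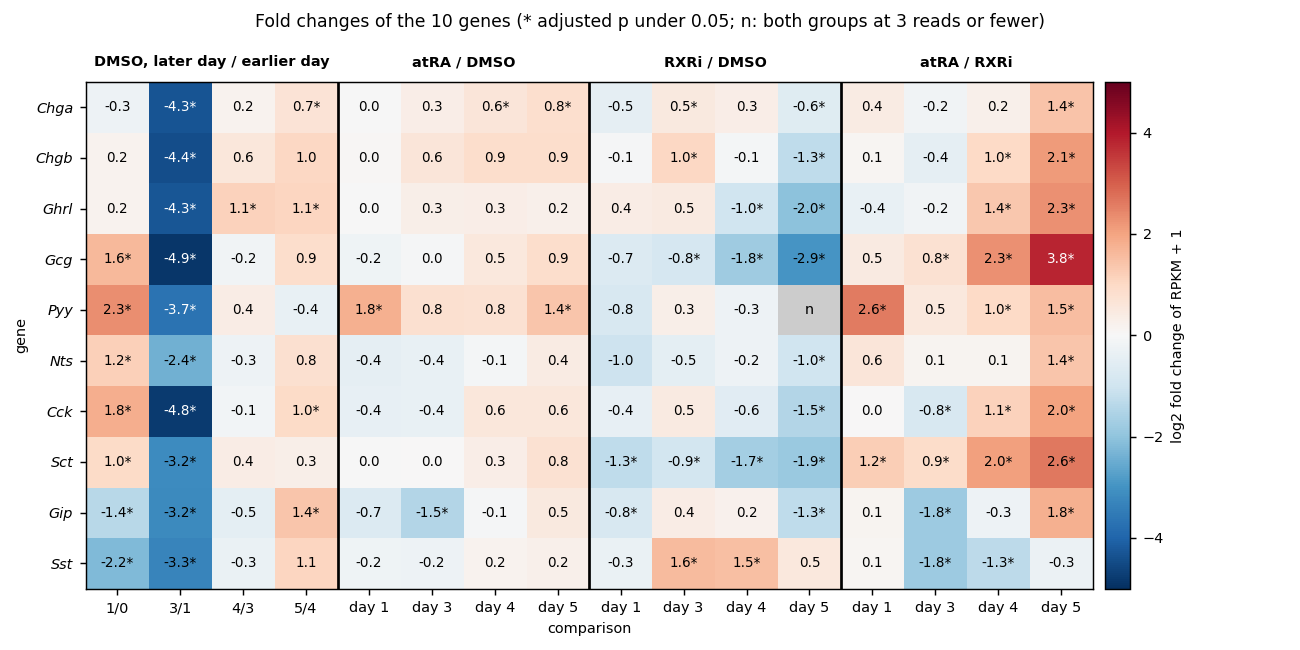
Log2 differences of RPKM + 1 for the 10 genes (rows) in DMSO time steps, atRA against DMSO, RXRi against DMSO and atRA against RXRi (columns), with asterisks for an adjusted p under 0.05 and n for Pyy in RXRi against DMSO on day 5, where reads were too few. The column of DMSO day 3 against day 1 is lower in all 10 genes, and RXRi against DMSO on day 5 is lower in 8.

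With the RXR antagonist, Sct and Gip were lower on day 1. Of the 10 genes 2 fell and 0 rose, where 9.93% of all genes were called lower and 10.5% higher. Sct had 19.5, 16.9, 23.8 and 29.4 RPKM in RXRi, against 52.5, 53.4 and 58.8 RPKM in DMSO. Gip had 122, 89.4, 86.7 and 108 RPKM in RXRi, against 185, 144 and 190 RPKM in DMSO. Neither gene overlapped between the groups, where 49.8% of all genes tested did not. Sct fell by 1.27 ± 0.27 (adjusted p = 0.00286) and Gip fell by 0.79 ± 0.25 (0.0317). Sct lost its call without culture 1 of RXRi on day 1 (0.0504), and Gip without culture 1 of DMSO on day 1 (0.188), culture 2 of DMSO on day 1 (0.0769), culture 1 of RXRi on day 1 (0.0889) or culture 2 of RXRi on day 1 (0.157). Pyy gave -0.80 ± 0.28 (0.0531) and Chga -0.45 ± 0.18 (0.0834); both were called with median-of-ratios scaling (0.0398 and 0.0381), and Pyy without culture 2 of RXRi (-1.19, 0.0184). Nts gave -1.03 ± 0.37 (0.0597), and 0.0316 with the culture as a block. Gcg was not called, with 200, 236, 225 and 235 RPKM in RXRi, against 343, 370 and 383 RPKM in DMSO. Its libraries did not overlap. By limma 6 of the 10 genes were lower at an unadjusted p under 0.05. Of 12 enterocyte markers 9 fell and 0 rose, with 99.9 to 116 RPKM in RXRi and 299 to 420 RPKM in DMSO, and their part was not tested.

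On day 3 under the antagonist 3 genes were called higher and 2 lower, where 18.4% of all genes were called higher and 25.4% lower. The counts were near these shares, so they are no result about the set. Sst had 3.61, 4.94, 4.66 and 4.35 RPKM in RXRi, against 0.459, 1.23, 0.693 and 0.968 RPKM in DMSO. Chgb had 92.9, 84.6, 116 and 119 RPKM in RXRi, against 42.1, 51.3, 49.0 and 56.4 RPKM in DMSO. Both were higher in every RXRi library than in any DMSO library, where 60.4% of all genes tested did not overlap. Sst had 6 to 19 reads per DMSO library, so the size of its change depends on the pseudocount. Sst rose by 1.56 ± 0.36 (adjusted p = 0.00237), Chgb by 1.03 ± 0.30 (0.0115) and Chga by 0.47 ± 0.18 (0.0391), while Sct fell by 0.90 ± 0.27 (0.0132) and Gcg fell by 0.82 ± 0.28 (0.0253). Sst kept its call without any culture. Chgb lost its call without culture 1 of DMSO on day 3 (0.0675) or culture 2 of RXRi on day 3 (0.101), and Chga without culture 1 of DMSO on day 3 (0.212), culture 2 of DMSO on day 3 (0.0530) or culture 2 of RXRi on day 3 (0.239). Gcg lost its call without culture 2 of DMSO on day 3 (0.150), culture 1 of RXRi on day 3 (0.0582) or culture 2 of RXRi on day 3 (0.128), and Sct without culture 2 of DMSO on day 3 (0.165) or culture 1 of RXRi on day 3 (0.0695). Voom on recovered reads called 2 of the 10 genes. Of 10 Paneth cell markers 7 fell and 1 rose, with 288 to 311 RPKM in RXRi and 1230 to 1465 RPKM in DMSO, and of 10 goblet cell markers 8 fell and 1 rose, with 329 to 400 RPKM in RXRi and 749 to 937 RPKM in DMSO. Of 9 tuft cell markers 7 stayed under 1 RPKM in every RXRi library, so their sum rests on few genes. The tuft cell markers summed to 19.9 to 22.2 RPKM in RXRi and 2.18 to 2.92 RPKM in DMSO, and the enterocyte markers to 97.5 to 126 RPKM in RXRi and 220 to 306 RPKM in DMSO. Their part was not tested.

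On day 4 Sst rose again while Ghrl, Gcg and Sct fell. That was 1 gene higher and 3 lower, where 22% of all genes were called higher and 37% lower (29.5% and 29.8% with median-of-ratios scaling). The counts were near or below these shares, so they are no result about the set. Sst had 2.18, 3.36, 3.56 and 3.36 RPKM in RXRi, against 0.0929, 0.713, 0.535 and 0.527 RPKM in DMSO. Gcg had 1.62, 3.25, 2.55 and 1.81 RPKM in RXRi, against 10.8, 13.2, 7.76 and 9.46 RPKM in DMSO. The groups did not overlap in either gene, where 64.9% of all genes tested did not, and the genes went opposite ways. Sst had 1 to 9 reads per DMSO library, so the size of its change depends on the pseudocount. Sst rose by 1.49 ± 0.36 (adjusted p = 0.00198), Gcg fell by 1.78 ± 0.28 (3.84e-05), Sct fell by 1.71 ± 0.27 (4.26e-05) and Ghrl fell by 1.01 ± 0.26 (0.00276). These 4 calls held under each alternative run and with any 1 culture left out, and Chga was gained with the scaling (0.49, 0.0137). The median of the 10 was -0.25, against -0.13 for all genes. Of 10 Paneth cell markers 9 fell and 1 rose, with 201 to 315 RPKM in RXRi and 2168 to 2830 RPKM in DMSO, and of 10 goblet cell markers 9 fell and 0 rose, with 540 to 674 RPKM in RXRi and 1913 to 2216 RPKM in DMSO. Of 9 tuft cell markers 7 stayed under 1 RPKM in every RXRi library here too. The tuft cell markers summed to 31.1 to 38.5 RPKM in RXRi and 2.04 to 2.92 RPKM in DMSO, and the enterocyte markers to 439 to 669 RPKM in RXRi and 4472 to 5624 RPKM in DMSO. Their part was not tested.

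By day 5 most of the set was lower in RXRi. Of the 10 genes 8 fell and 0 rose, where 35.1% of all genes were called lower and 28.7% higher, and the median of the 10 was -1.26 against -0.06 for all genes. Gcg had 1.59, 2.31, 1.77 and 1.24 RPKM in RXRi, against 14.7, 24.6, 18.0 and 23.0 RPKM in DMSO. Ghrl had 5.19, 6.75, 4.87 and 5.16 RPKM in RXRi, against 19.6, 24.0, 30.0 and 29.7 RPKM in DMSO. In both genes the highest RXRi library was below the lowest DMSO library. Lack of overlap, in either direction, held for 63.7% of all genes tested. Gcg fell by 2.94 ± 0.28 (adjusted p = 9.06e-08), Ghrl fell by 2.04 ± 0.26 (2.72e-06), Sct fell by 1.85 ± 0.27 (1.44e-05), Cck fell by 1.46 ± 0.26 (8.94e-05), Gip fell by 1.27 ± 0.25 (0.000249), Chgb fell by 1.25 ± 0.30 (0.00171), Nts fell by 1.00 ± 0.37 (0.0251) and Chga fell by 0.59 ± 0.18 (0.00764). Nts lost its call without culture 1 of DMSO on day 5 (0.288), culture 1 of RXRi on day 5 (0.116) or culture 2 of RXRi on day 5 (0.0509), and Chga without culture 2 of DMSO on day 5 (0.0716). Sst had 1.81, 3.81, 3.85 and 5.21 RPKM in RXRi, against 2.90, 1.69, 1.42 and 2.57 RPKM in DMSO. Those libraries overlapped, and the difference of 0.54 (95% interval -0.22 to 1.31) was not called. Pyy had 0 to 2 reads per library in RXRi and 0 to 2 in DMSO, so no fold is given.

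Within the hormones the mix moved with these levels. Sst made up 9.73% ± 3.02 of the hormones in RXRi and 1.72% ± 0.354 in DMSO on day 5, where its own level was not called. Gcg made up 4.61% ± 0.939 in RXRi and 16.0% ± 1.28 in DMSO on day 5. On day 4 Sst made up 8.22% ± 0.914 in RXRi and 0.804% ± 0.231 in DMSO, and on day 3 6.47% ± 0.677 in RXRi and 1.43% ± 0.270 in DMSO.

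The effect of the antagonist was also compared between days. For day 5 less day 1, 4 of the 10 genes were called lower and 0 higher, where 23.6% of all genes were called lower and 17.8% higher. These were Ghrl at -2.40 ± 0.36 (adjusted p = 5.48e-05), Gcg at -2.26 ± 0.40 (0.000227), Chgb at -1.20 ± 0.43 (0.0333) and Cck at -1.04 ± 0.36 (0.0295). Ghrl gave -2.04 against DMSO on day 5 and 0.37 on day 1. Sct, called lower on both days, gave a difference of -0.58 (95% interval -1.39 to 0.23). Chgb lost its call without culture 1 of DMSO on day 1 (0.119), culture 2 of RXRi on day 1 (0.107), culture 1 of DMSO on day 5 (0.0733), culture 2 of DMSO on day 5 (0.0616) or culture 2 of RXRi on day 5 (0.101), and Cck without culture 1 of DMSO on day 1 (0.0968), culture 2 of RXRi on day 1 (0.113), culture 1 of DMSO on day 5 (0.0537), culture 2 of DMSO on day 5 (0.0675) or culture 2 of RXRi on day 5 (0.0834). Without culture 2 of RXRi on day 1, Sst (1.51, adjusted p = 0.0159) and Pyy (1.06, 0.0492) were called higher.

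Markers of the other cell types moved with RXRi as well. On day 5, 12 of 12 enterocyte markers fell, with a summed level of 223 to 320 RPKM in RXRi and 12400 to 16780 RPKM in DMSO. Of 10 goblet cell markers 10 fell (682 to 1126 RPKM in RXRi and 3106 to 3276 RPKM in DMSO), and of 10 Paneth cell markers 9 fell and 1 rose (365 to 548 RPKM in RXRi and 4059 to 5879 RPKM in DMSO). Of the 4 tuft cell markers tested 2 rose and 2 fell, with 34.9 to 39.1 RPKM in RXRi and 2.33 to 3.08 RPKM in DMSO. The 8 fibroblast markers summed to at most 0.0546 RPKM in RXRi and 0.321 RPKM in DMSO. The part of the epithelial shifts in the fall of the hormones was not tested.

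Set against each other, the drugs parted most on day 5. Of the 10 genes, 2 were higher in atRA than in RXRi and 0 lower on day 1 (12.2% and 13.5% of all genes), 2 and 3 on day 3 (25.1% and 22.2%), 6 and 1 on day 4 (30.9% and 29.4%) and 9 and 0 on day 5 (37.1% and 29.7%). Their median was 0.27 on day 1, -0.17 on day 3, 1.00 on day 4 and 1.90 on day 5. Gcg had 52.9, 57.4, 24.0 and 25.2 RPKM in atRA on day 5, against 1.59, 2.31, 1.77 and 1.24 RPKM in RXRi. The groups lay apart by 3.81 ± 0.28 (adjusted p = 2.95e-09). Sct was higher in atRA on each day, by 1.23 ± 0.27 (0.00260) on day 1, 0.94 ± 0.27 (0.00912) on day 3, 2.04 ± 0.27 (5.15e-06) on day 4 and 2.62 ± 0.27 (2.22e-07) on day 5. Pyy was higher in atRA on day 1 by 2.59 ± 0.28 (2.23e-06). Gip and Sst were lower in atRA on day 3, at -1.82 ± 0.25 (1.17e-05) and -1.81 ± 0.36 (0.000589). Sst had 4 to 9 reads per atRA library on day 3, so the size of its difference depends on the pseudocount.

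Several of these calls depended on 1 culture, and the comparisons share their libraries with those against DMSO. On day 3, Sct lost its call without culture 1 of RXRi on day 3 (0.0524), Gcg without culture 2 of atRA on day 3 (0.174), culture 1 of RXRi on day 3 (0.0638) or culture 2 of RXRi on day 3 (0.147) and Cck without culture 1 of atRA on day 3 (0.0551), culture 2 of atRA on day 3 (0.0572) or culture 1 of RXRi on day 3 (0.102). On day 4, Chgb lost its call without culture 1 of atRA on day 4 (0.103), and Sst without culture 2 of atRA on day 4 (0.0597). On day 5, Nts lost its call without culture 1 of atRA on day 5 (0.0896). Sst on day 5 was the gene not called, at -0.30 (95% interval -1.06 to 0.47).

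The 10 genes did not all follow 1 course. Over the 26 culture means, Chga and Chgb had a Pearson r of 0.979 on the log2(RPKM + 1) scale, the highest of the pairs, and Sst and Pyy one of 0.552, the lowest. Over the 18 culture means of days 3 to 5, Chga and Chgb had 0.941 and Gcg and Sct 0.947, while Sst had -0.431 with Sct, -0.363 with Gcg and 0.534 with Gip. The points share groups, libraries and the large step between days 1 and 3, so these are descriptions without a test.

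Other genes of the enteroendocrine programme, taken from lists of known function, give the setting. Over the step from day 1 to day 3 in DMSO, 24 of 27 tested genes of granules and exocytosis fell and 0 rose, with a median of -1.66, where 6.49% of all genes were called lower. Among them the calcium sensor Scgn fell by 3.15 ± 0.20 (adjusted p = 1.35e-08) and the secretogranin Scg3 fell by 2.69 ± 0.20 (1.05e-07). Of 22 tested transcription factors 15 fell and 0 rose, with a median of -1.0. They include Neurod1 (-2.49 ± 0.24) and Rfx6 (-2.08 ± 0.19), which drive enteroendocrine differentiation, and Fev (-2.66 ± 0.22). Of 9 tested other hormones and amine enzymes 2 fell, Tac1, the precursor of substance P, fell by 4.02 ± 0.29 and Tph1, which makes serotonin in enterochromaffin cells, fell by 3.55 ± 0.31. Of 11 tested genes of prohormone processing and hormone inactivation 4 fell, the carboxypeptidase Cpe fell by 3.35 ± 0.29, the convertase Pcsk1 fell by 2.82 ± 0.36, the ghrelin acyltransferase Mboat4 fell by 0.68 ± 0.15 and the peptidase Dpp4, which inactivates incretins, fell by 0.58 ± 0.16.

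On day 1 against day 0 in DMSO 13 of 22 transcription factors fell and 0 rose, among them Isl1 fell by 1.03 ± 0.15 and Sox4 fell by 1.26 ± 0.18, where 35.6% of all genes were called lower and 25.6% higher. Of 27 granule genes 5 fell and 1 rose, a smaller share than of all genes in both directions. Of 9 other hormones and amine enzymes 5 fell, Ucn3 fell by 2.96 ± 0.19, Adm fell by 2.39 ± 0.76, Iapp fell by 1.83 ± 0.40, Ddc fell by 0.86 ± 0.23 and Nmb fell by 0.43 ± 0.15, and 0 rose. For day 5 against day 4 the granule genes had a median of 0.11 and the transcription factors one of 0.08.

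With retinoic acid few genes of any kind were called, 1.93% of all genes higher and 1.53% lower on day 1. The shares were 4.32% and 4.36% on day 3, and 3.58% and 7.35% on day 4. The list genes named here are single genes and no result about the lists. On day 1 retinoic acid raised the neuropeptide gene Nmb by 0.60 ± 0.15 (adjusted p = 0.0399) and the transcription factor Mnx1 by 0.92 ± 0.18 (0.00523). On day 3 it raised Ddc, the decarboxylase of serotonin synthesis, by 1.06 ± 0.23 (0.00488) and Dpp4 by 0.64 ± 0.16 (0.0138), and on day 4 Dpp4 by 0.72 ± 0.16 (0.00670). On day 5 the granule genes had a median of 0.28 and the transcription factors one of 0.20.

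Under RXRi Neurog3, the factor that starts the enteroendocrine lineage, was higher on day 1 and lower on day 5. On day 1, 4 of 22 transcription factors rose, among them Neurog3 by 1.21 ± 0.33 (adjusted p = 0.0142), Isl1 by 0.58 ± 0.15 and Runx1t1 by 0.34 ± 0.10, and 2 fell, Sox4 fell by 1.28 ± 0.18 and Mnx1 fell by 0.71 ± 0.18, where 10.5% of all genes were called higher and 9.93% lower, so the falls were about as frequent as over all genes. On day 5, 12 fell and 1 rose, where 35.1% of all genes were called lower and 28.7% higher, with Neurog3 at -2.38 ± 0.33 (6.99e-06), at 0.125 RPKM in RXRi and 5.28 RPKM in DMSO. Atoh1, which opens the secretory fate, fell by 2.22 ± 0.16, and Foxa1 was the gene that rose, by 1.76 ± 0.17. Of 27 granule genes 9 fell and 2 rose on day 5, the falls close to the share of all genes called lower, so the count is no result about granule genes. The secretogranin Scg2 was among those that fell, at -1.36 ± 0.32.

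Of the processing genes under RXRi on day 5, the amidating enzyme Pam rose by 2.06 ± 0.25 and Cpe by 1.58 ± 0.29. The surface peptidases Dpp4, Mme and Ace, which enterocytes carry too, fell, with log2 differences of -3.52 ± 0.16, -4.01 ± 0.40 and -3.06 ± 0.37. Of the 9 other hormones and amine enzymes 2 rose and 4 fell, counts near the shares over all genes. Npy rose by 2.56 ± 0.15 on the log2(RPKM + 1) scale, with 5.01 RPKM in RXRi and all DMSO libraries listed at 0, so its size depends on the pseudocount, and Calcb rose by 1.89 ± 0.40. Ddc fell by 3.79 ± 0.23, Adm fell by 2.55 ± 0.76, Tac1 fell by 1.15 ± 0.29 and Ucn3 fell by 0.56 ± 0.19.

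**Figure D4:**
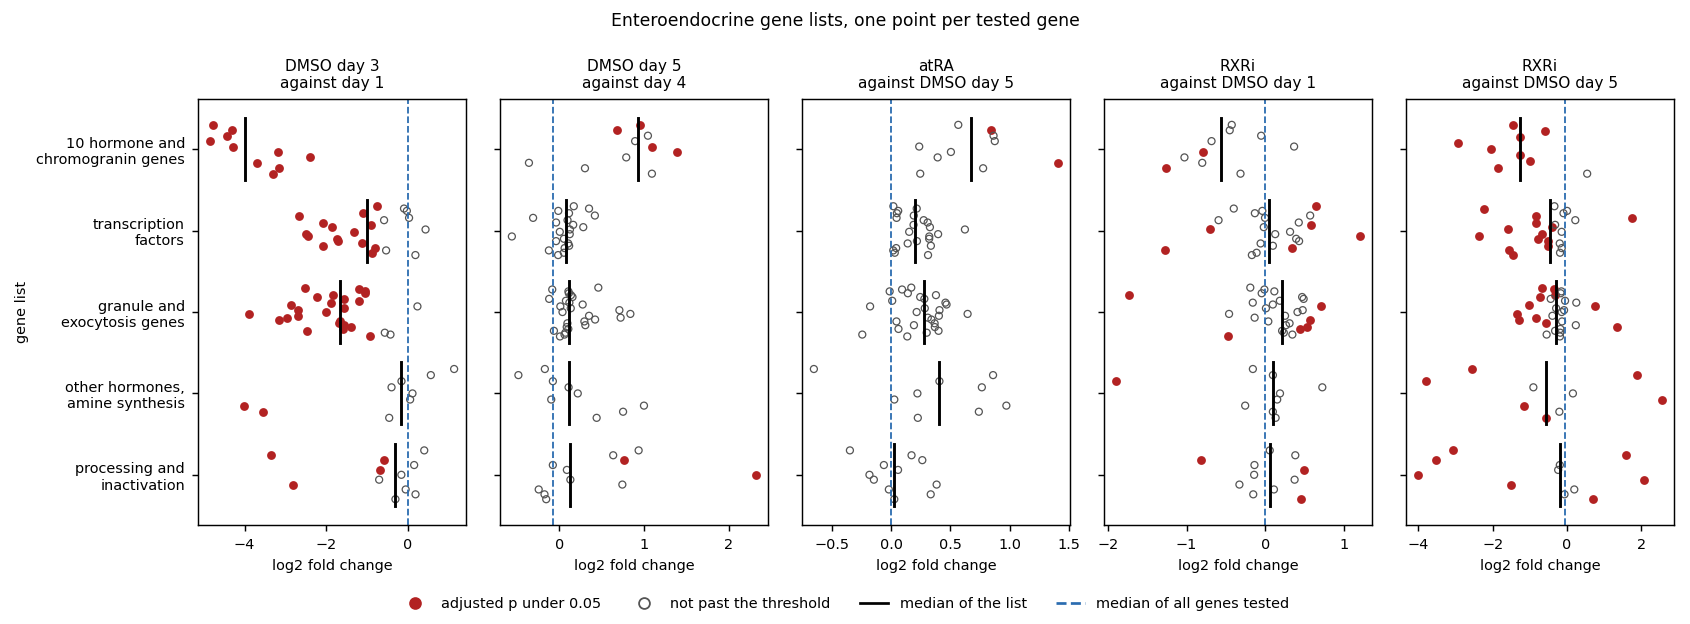
Log2 differences of RPKM + 1 (x axis) of the tested genes in the set and in further enteroendocrine lists (rows) over 5 comparisons (panels), 1 point per gene. Red points passed an adjusted p under 0.05, black bars are list medians, the dashed line is the median of all genes, and Pyy is left out for RXRi on day 5.

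Most receptors of these hormones were below the filter. Of 20 receptors of the member hormones 4 were tested, Cckar, Gipr, Sort1 and Sstr1, and of 25 receptors by which enteroendocrine cells sense nutrients and signals 4 were tested. In DMSO the cholecystokinin receptor Cckar fell by 2.89 ± 0.06 and the incretin receptor Gipr fell by 0.97 ± 0.08 on day 1 against day 0. In RXRi on day 5 the fatty acid receptor Ffar4 fell by 1.25 ± 0.22 and the adrenergic receptor Adra2a fell by 1.54 ± 0.30.

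The genes most like the set in pattern included several granule genes. Likeness was the Pearson r over 26 culture means between a gene and the mean of the standardised log2 values of the 10. The 10 nearest genes outside the set were Scg2 (r = 0.991), Scg5 (0.985), Lmx1a (0.981), Rab3c (0.978), Ceacam10 (0.977), Scgn (0.974), Scg3 (0.974), Ptprn2 (0.973), Hmgn3 (0.973) and Gng4 (0.973). By single members, the nearest was Lmx1a for Chga (0.992), Scg2 for Chgb (0.989), Ghrl (0.983) and Nts (0.931), Pcsk1 for Sct (0.952), Gfra3 for Gcg (0.973), Rspo4 for Cck (0.978), Rbp4 for Gip (0.955), Slc22a17 for Sst (0.950) and Sept4 for Pyy (0.914). The ranking depends on the measure. By Spearman's rho Scg2, Rab3c and Scgn ranked 2, 5 and 6 for the mean of the 10, while Scg5, Hmgn3 and Scg3 ranked 52, 47 and 45. Lmx1a stayed nearest to Chga, while Sept4 ranked 68 for Pyy, Rspo4 48 for Cck and Scg2 40 for Nts.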

How the data were processed

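Each library was made with a TruSeq mRNA kit from 3 pooled wells seeded with 50000 cells each, per the labels' protocols. Submitters' processing notes name bcl2fastq 2.17, STAR 2.5.2b and mm10. What counted the reads, on which annotation and strand, is not given in the sources used here. The authors deposited RPKM per gene and library, per the file headers. As a share of its library, an RPKM value falls when other genes take more reads.

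For the 19708 genes above 0, 100.0% of RPKM values were whole reads within 0.001 of a read, which gave depths, the floor of 3 reads and 1 alternative. Libraries detected 14387 to 15800 genes (5161 in the shallow one, where 3 reads in a 1 kb gene are 241 RPKM, against at most 0.233 elsewhere). Intervals cover counting error only.

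Duplicates were averaged per culture as log2(RPKM + 1), which shrinks differences of low genes, giving 26 culture means. The filter was 1 RPKM in 4 or more libraries (11673 genes left out). limma 3.58.1 (R 4.3.3, trend and robust) was fitted to all 13 groups with 13 residual degrees of freedom, in two-sided tests adjusted by Benjamini-Hochberg for each of 19 comparisons, and was tested on simulated data. The p-values measure the spread between cultures of 2 littermates.

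Pairing by culture comes from the labels; residuals of a culture correlated between groups with median r 0.149 (-0.317 to 0.759, 78 pairs of groups, 47 over 0.1). No 2 of the libraries were identical (0 of 1326 pairs), and duplicates differed beyond counting error (chi-square per degree of freedom 1.98 to 15.1, 25 pairs). Alternatives were a pseudocount of 0.1, no filter, a filter of 0.1 RPKM, median-of-ratios scaling, the shallow library kept, the culture as a block, voom on recovered reads, and leaving out each culture.

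Members and gene lists were chosen with earlier results of these data known, so their counts are descriptions. Besides the members, up to 6 genes per list and comparison with the smallest adjusted p could be named, and any count of 5 or fewer; genes of like pattern are the nearest by Pearson r, without predicted gene models. Coordinates and promoters are RefSeq on GRCm38.p6.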

Additional observations from a re-analysis of the deposited data

Results flagged for a closer look

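In groups of 4 libraries, 9 of 120 tested gene and group pairs had 1 library far from the other 3. For 4 independent values chance flags about 1 in 20. The libraries are duplicates of 2 cultures and are shared by the genes, so that rate need not hold here. Ghrl reached 8.90 RPKM in a culture 1 library of RXRi on day 3 and 6.75 RPKM in one of RXRi on day 5. Chga was 13.2 RPKM in a culture 1 library of DMSO on day 5, below its 3 companions. Cck reached 12.6 RPKM in RXRi on day 5 and Sst was 2.18 RPKM in RXRi on day 4, both in culture 1. Pyy was 0.866 RPKM in a culture 2 library of atRA on day 4 and 0.168 RPKM in one of RXRi on day 5, values of few reads. Nts reached 1.40 RPKM in DMSO on day 3 and 1.45 RPKM in DMSO on day 4, both in culture 1.

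By a test of the difference, the effect of RXRi was called lower on day 5 than on day 1 in 4 of the 10 genes. Over all genes 23.6% were called lower and 17.8% higher. The differences were -2.40 for Ghrl, -2.26 for Gcg, -1.20 for Chgb and -1.04 for Cck on the log2 scale. The Chgb and Cck calls depended on single cultures.

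The DMSO library of day 1 that was left out held 24 reads of Chgb and 5 of Chga, above the floor of 3 reads, and 0 or 1 read of each of the other 8 genes.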

How the results depend on the processing

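Of 190 member results, 82 were called, none was called with the opposite sign under any alternative, and the count of calls among the 10 genes moved as follows where it changed by over 1.5 times; smaller moves are not listed. With a pseudocount of 0.1 it was 0 for atRA on day 1 (1 as reported), 2 for atRA on day 3 (1) and 2 for atRA on day 4 (1). With no filter it was 2 for DMSO day 5 against day 4 (4), 0 for atRA on day 4 (1) and 1 for RXRi on day 1 (2). With median-of-ratios scaling it was 2 for DMSO day 4 against day 3 (1), 2 for atRA on day 4 (1) and 4 for RXRi on day 1 (2). With the shallow library kept it was 1 for DMSO day 5 against day 4, 0 for atRA on day 4, 1 for atRA on day 5 (2), 1 for RXRi on day 1, 2 for RXRi on day 3 (5) and 3 for atRA against RXRi on day 3 (5). With voom on recovered reads it was 1 for DMSO day 5 against day 4, 0 for atRA on day 4, 2 for RXRi on day 3 and 3 for atRA against RXRi on day 3. The cause of these moves was not tested. With the culture as a replicate block 82 calls were kept, 0 were lost and 1 was gained (Nts in RXRi on day 1, -1.03). Taken from reads in place of RPKM, 85 of the hormone shares moved by more than their SD over cultures and 19 did not.

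With 1 culture left out, the lone culture of its group being assumed to vary like the others, the DMSO counts were 5 to 7 for day 1 against day 0, 10 to 10 for day 3 against day 1, 1 to 1 for day 4 against day 3, 0 to 2 for day 5 against day 4 and 9 to 10 for day 5 against day 0. For atRA on days 1, 3, 4 and 5 they were 1 to 1, 1 to 1, 0 to 0 and 0 to 8. For RXRi they were 0 to 2, 2 to 3, 4 to 4 and 7 to 7, and for atRA against RXRi 2 to 2, 2 to 4, 6 to 7 and 8 to 9. For the change of effect from day 1 to day 5 they were 0 to 7 for atRA and 2 to 4 for RXRi. The calls over all genes, given above for the full data only, changed between these runs too. With 2 cultures per group, and with Pyy and Nts near the floor on late days, small differences were not detectable. Sst was near the floor too in DMSO and atRA on days 3 and 4.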
